A study of Mus musculus with 24 samples.

Results

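The genes of DNA replication and mitosis were followed across the livers of tumour-bearing and sham-injected mice. They were chosen by name, from the rows whose Ensembl gene identifier carries one of the 40 symbols in the gene annotation GENCODE M21, and all 40 were found among the 22392 genes of the expression table. By role they comprise 8 genes of replication licensing, 4 of helicase activation, 6 of DNA synthesis at the fork, 4 of deoxynucleotide supply, 3 of the control of entry into S phase and 15 of mitosis. Liver RNA was sequenced from CD2F1 mice in 3 groups of 8, each library being 1 mouse. C26-CHO mice were injected with C26 cells and ate a diet with cholestyramine (2% w/w), starting on day 1 and ending on day 10 after the injection. C26 mice received the cells and no treatment, and CT mice were sham-injected and had no tumour. C26 is a transplantable mouse colon carcinoma line used as a model of cancer wasting (cachexia), and cholestyramine is an anion exchange resin, not absorbed, that binds bile acids in the intestine. A single tumour line was used, cholestyramine was not given to mice without a tumour, and neither age nor sex is stated in the labels.

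Before a cell copies its DNA, the origin recognition complex, Cdc6 and Cdt1 load the ring of Mcm2 to Mcm7 onto DNA, which is called licensing. Cdc45, the GINS complex and Mcm10 then turn the loaded ring into a moving helicase, and polymerases, the sliding clamp and its loader copy the opened strands from deoxynucleotides that ribonucleotide reductase, thymidylate synthase and thymidine kinase supply. Mitosis is driven by cyclin B with Cdk1, and is policed by the spindle checkpoint. Hepatocytes of the adult liver rarely divide, so that transcripts of mitosis are scarce in that tissue, and E2F factors and the DREAM complex are known to hold these genes down in resting cells.

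Recovered reads per library averaged 25.8 ± 3.5 M in C26-CHO, 22.8 ± 2.9 M in C26 and 22.02 ± 1.1 M in CT (SD, n = 8 each), and lay between 19.9 and 30.5 M in single libraries. Hepatocyte marker genes summed to 1314900 to 1831500 normalized counts per mouse in C26-CHO, 1592800 to 1834300 in C26 and 1783500 to 2028400 in CT. Single markers went both ways against CT (limma, adjusted p under 0.05). Of the 10, 3 were higher and 5 lower in C26, beside 33.3% and 32.9% of all tested genes. In C26-CHO 4 were higher and 4 lower, beside 31.3% and 30.9%. The sum therefore does not stand for each marker. In bulk liver RNA, fewer cells of a type and less RNA per cell cannot be told apart. The 40 genes held 0.0127% of the reads in C26-CHO, 0.0106% in C26 and 0.0302% in CT. Most were low: their median mean level over the 24 libraries was 32.6 normalized counts (reads divided by the size factor of the library), against 273 over the tested genes. A gene was tested when that mean reached 10, which 32 of the 40 did. The other 8, Cdc6 of licensing and Ccnb1, Ccnb2, Cdc20, Bub1, Bub1b, Aurkb and Plk1 of mitosis, were fitted only in a second fit over all 22392 genes. Per kilobase of merged exons, the median of the 40 was 7.81 normalized counts in C26-CHO, 7.92 in C26 and 8.46 in CT, whereas the median of tested genes was 63.7, 63.3 and 62.8 in those groups. In CT, Mcm10 (375.8 normalized counts per kilobase), Pcna (218) and Tk1 (147) were the 3 members at or above that median, and Mcm10 and Tk1 together took 60.8% of the reads of the 40 genes. In C26-CHO and in C26 the 3 were Pcna, Mcm10 and Gins1, and Mcm10 and Tk1 took 32.7% and 27.4% of the reads.

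The promoters are given first because the searched words were spread unevenly over replication and mitosis genes. RefSeq promoter windows (GRCm38.p6, 250 bases before to 50 after the start) were found for 32 of the 40 genes; Mcm4, Gins1, Gins2, Pole, Ccne2, Ccna2, Aurkb and Foxm1 had no entry. The windows of 5 genes are given here, with matches in capitals to E2F-type words (TTGGCGC or TTCGCGC or TTCCCGC or TTGCCGC), to words of the cell cycle homology region (CHR-type, TTTGAA or TTCGAA) and to CCAAT, the word of the factor NF-Y. All were searched on both strands, and overlapping matches were each counted. Mcm6 (chr1:128359656-128359955, minus strand) and Mcm7 (chr5:138171834-138172133, minus strand, the first of 2 listed windows) are subunits of the same ring whose levels differed from CT in opposite directions in C26. Cdk1 (chr10:69352863-69353162, minus strand) and Kif11 (chr19:37376132-37376431, plus strand) stand for the mitosis genes. Tk1 (chr11:117825965-117826264, minus strand) had the largest fall in C26 of the tested members, and its window holds none of the words.
Mcm6: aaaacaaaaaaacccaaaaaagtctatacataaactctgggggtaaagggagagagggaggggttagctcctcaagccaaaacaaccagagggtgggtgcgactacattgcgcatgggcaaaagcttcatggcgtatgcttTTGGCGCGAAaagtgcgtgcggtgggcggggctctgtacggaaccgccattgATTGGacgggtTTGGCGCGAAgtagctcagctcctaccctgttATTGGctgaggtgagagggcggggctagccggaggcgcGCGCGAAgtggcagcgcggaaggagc
Mcm7: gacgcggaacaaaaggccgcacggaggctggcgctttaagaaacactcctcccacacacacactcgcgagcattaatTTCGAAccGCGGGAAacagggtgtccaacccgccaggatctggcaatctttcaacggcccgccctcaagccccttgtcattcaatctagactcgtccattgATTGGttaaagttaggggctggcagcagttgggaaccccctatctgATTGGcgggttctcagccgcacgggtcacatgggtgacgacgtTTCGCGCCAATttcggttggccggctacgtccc
Cdk1: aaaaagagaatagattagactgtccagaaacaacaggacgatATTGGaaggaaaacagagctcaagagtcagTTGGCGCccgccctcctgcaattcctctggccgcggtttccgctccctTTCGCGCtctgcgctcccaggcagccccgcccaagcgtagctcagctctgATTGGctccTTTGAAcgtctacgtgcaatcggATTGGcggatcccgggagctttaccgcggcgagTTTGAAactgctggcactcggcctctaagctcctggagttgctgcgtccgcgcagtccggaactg
Kif11: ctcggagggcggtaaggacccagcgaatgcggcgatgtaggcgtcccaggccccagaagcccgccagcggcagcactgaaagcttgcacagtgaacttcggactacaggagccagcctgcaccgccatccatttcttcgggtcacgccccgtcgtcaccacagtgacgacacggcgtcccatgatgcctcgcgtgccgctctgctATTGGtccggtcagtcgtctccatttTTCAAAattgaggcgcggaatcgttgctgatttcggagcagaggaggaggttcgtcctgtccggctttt
Tk1: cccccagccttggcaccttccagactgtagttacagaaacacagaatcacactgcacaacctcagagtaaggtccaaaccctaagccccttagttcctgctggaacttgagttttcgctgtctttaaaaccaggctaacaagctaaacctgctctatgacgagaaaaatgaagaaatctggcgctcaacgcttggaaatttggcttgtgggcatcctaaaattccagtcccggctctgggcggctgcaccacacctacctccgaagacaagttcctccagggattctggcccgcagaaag
The Mcm6 window holds 5 E2F-type matches, no CHR-type match and 2 CCAAT words, and the Mcm7 window 3, 1 and 3. In the Cdk1 window there are 2 E2F-type, 2 CHR-type and 3 CCAAT matches, and in the Kif11 window 0, 1 and 1.

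E2F-type words were in the windows of 12 of the 20 members outside mitosis that have one and of 3 of the 12 mitosis members, beside 10.9% of all genes with a window. For CHR-type words the order was turned: 4 of 20 members outside mitosis and 10 of 12 mitosis members held one, beside 21.7% of all genes. A CCAAT word was in 13 of 20 and 11 of 12, beside 41.1%, and a CHR-type word together with CCAAT in 4 of 20 and 10 of 12, beside 8.61%. Of the licensing genes with a window, 6 of 7 held an E2F-type word. These are counts of letters in a window and not of bound factors. Words outside the window of a listed RefSeq start, or near another start of a gene, were not searched.

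**Figure D1:**
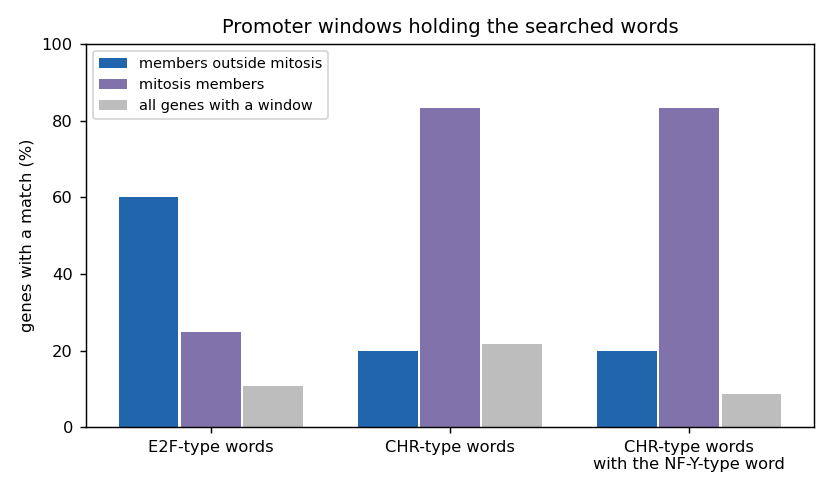
Share of genes (%, y axis) whose promoter window holds the searched words, for 20 members outside mitosis, 12 mitosis members and all genes with a window. E2F-type words were in 60%, 25% and 10.9% of these sets, and CHR-type words in 20%, 83.3% and 21.7%.

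In C26 livers the replication and mitosis genes were mostly lower than in CT livers, with 4 exceptions among the called genes. Thymidine kinase Tk1 and the helicase factor Mcm10 had the largest falls. The S phase regulator E2f1, licensing factor Cdt1, ring subunit Mcm6, reductase subunit Rrm2 and mitotic kinase Cdk1 also fell at least 2-fold. With Tk1 and Mcm10 this makes 7 of the 32 tested members (8.26% of all tested genes did so). Cdk1 and Rrm2 reached the filter mean of 10 through CT mice, with means of 20.2 and 20.9 in CT. They averaged 8.39 and 9.29 in C26 and 9.58 and 10.2 in C26-CHO. In the limma fit with no filter both were lower too (adjusted p = 0.00268 and 0.00712). The ring subunits Mcm4 and Mcm7, the GINS subunit Gins1 and the primase subunit Prim1 rose. Of 32 tested members, 4 were higher and 16 lower (limma on all 14040 tested genes, Benjamini-Hochberg adjusted p under 0.05). Tumour-bearing mice differed from CT in most of the transcriptome: 66.3% of tested genes were called, 33.3% higher and 32.9% lower. The 20 called members of 32 are therefore close to the share of all genes, and the split by direction is given as a description. The median log2 fold change of the 32 was -0.48, against 0.01 over all tested genes. Over all 40 members in the fit with no filter, 4 were higher and 19 lower, beside 23.4% and 23.5% of all 22392 genes, and 31 of the 40 fold changes were below 0.

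**Figure D2:**
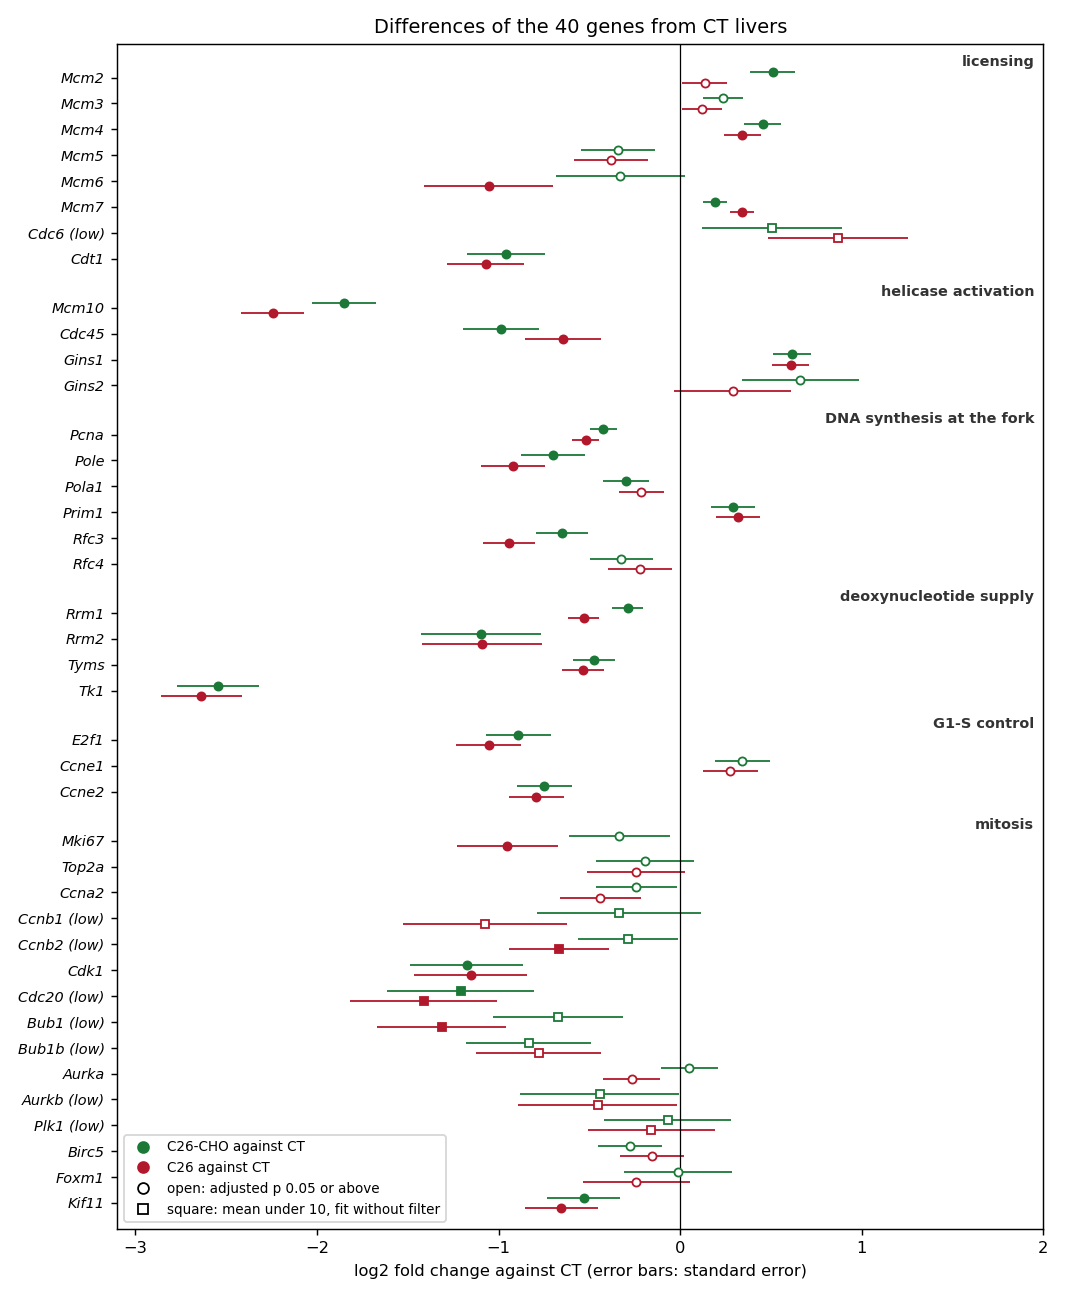
Log2 fold change against CT (x axis, error bars standard error) of the 40 genes in C26-CHO and C26 livers, by role; filled symbols have an adjusted p under 0.05, and squares are the 8 low genes from the fit with no filter. Tk1 (-2.55 and -2.64) and Mcm10 (-1.85 and -2.24) lie far to the left in both groups, and Mcm4, Mcm7 and Gins1 lie right of 0 in both.

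Licensing genes moved in both directions. Mcm7 (ENSMUSG00000029730, chr5:138164583-138172422, minus strand, GRCm38), a ring subunit, lay at 244, 268 and 301.2 normalized counts in C26 (lowest, median and highest mouse), against 184, 210.4 and 238.8 in CT. Every C26 mouse was above every CT mouse (log2 fold change 0.34 ± 0.07 SE, adjusted p = 8.34e-05). Groups that do not overlap were found for 16.9% of tested genes with C26 above CT and for 18% with C26 below. Mcm4, another subunit, had 83.2, 96.9 and 126.4 in C26, against 63.0, 81.2 and 96.4 in CT. The groups overlapped, with 4 C26 mice above all CT mice (0.34 ± 0.10, adjusted p = 0.00468). Part of the exons of Mcm7 is also exon of Ap4m1 (7.25%) and Cops6 (1.45%) on the other strand; Ap4m1 averaged 118 in C26 and 129 in CT, and Cops6 1567 in C26 and 1561 in CT. Whether reads were assigned by strand is not given in the sources used here, so levels of genes with such an overlap cannot be credited with certainty to 1 gene.

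Mcm6 (ENSMUSG00000026355, chr1:128331590-128359664, minus strand), a subunit of the same ring, went the other way. Its levels were 3.44, 10.4 and 19.1 normalized counts in C26 and 12.4, 18.5 and 48.7 in CT. Although 5 C26 mice were below all CT mice, the groups overlapped (-1.05 ± 0.36, adjusted p = 0.0115). Mcm6 was the lowest of the 6 subunits per kilobase, at 2.45 normalized counts in C26 and 5.18 in CT, whereas Mcm7 stood at 60.2 and 47.5. Mcm2, Mcm3 and Mcm5 did not pass the test, with log2 fold changes of 0.13 ± 0.12, 0.12 ± 0.11 and -0.38 ± 0.20. The loader Cdt1 (ENSMUSG00000006585, chr8:122568015-122573554, plus strand) stood at 23, 34.3 and 52.3 in C26, against 52.4, 74.8 and 112 in CT. No C26 mouse reached the lowest CT mouse, although the margin was narrow (-1.07 ± 0.21, adjusted p = 9.37e-05). Cdc6, which loads the ring with Cdt1, was below the filter, with 39 reads over the 8 C26 libraries and 24 over the CT libraries. Scaled by size factors the ratio was 1.99 (exact 95% interval 1.17 to 3.47, counting error only), but in the fit over all genes the adjusted p was 0.0665.

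Among the genes of helicase activation, Mcm10 (ENSMUSG00000026669, chr2:4989714-5012791, minus strand), which joins the helicase as it starts to move, had 444, 606 and 765 normalized counts in C26 and 2456, 2838 and 3484 in CT. The highest C26 mouse was far below the lowest CT mouse (-2.24 ± 0.18, adjusted p = 2.46e-11). Gins1 (ENSMUSG00000027454, chr2:150905400-150931280, plus strand), a GINS subunit, moved the other way, with 86.1, 97.7 and 118 in C26 and 52.4, 62.9 and 77.7 in CT. Again the groups were apart (0.61 ± 0.10, adjusted p = 1.24e-05). Cdc45, the third part of the active helicase, had 6.55, 15.4 and 18.8 in C26, against 15.7, 21.7 and 27.6 in CT. It fell with 4 C26 mice below all CT mice (-0.64 ± 0.21, adjusted p = 0.00895), and 5.96% of its exon bases are also exon of Ufd1 on the other strand. Gins2, a second GINS subunit, did not pass the test (0.29 ± 0.32, adjusted p = 0.439); 67.3% of its exon bases overlap Gse1 on the other strand, and its sign turned to -0.048 under quantile normalization.

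At the fork, the sliding clamp Pcna (ENSMUSG00000027342, chr2:132249162-132253314, minus strand) had 308, 361 and 426 normalized counts in C26 and 489, 528 and 545 in CT. The groups did not overlap (-0.52 ± 0.07, adjusted p = 1.04e-06). Rfc3, a subunit of the clamp loader, likewise stayed below CT in every C26 mouse, with 52.2, 55.0 and 68.4 in C26 and 83.3, 114 and 151 in CT (-0.94 ± 0.14, adjusted p = 2.12e-06). Pole, the catalytic subunit of the leading strand polymerase, had 12.2, 20.8 and 34.9 in C26, against 31.9, 37.9 and 49.4 in CT. In 7 C26 mice it was below all CT mice (-0.92 ± 0.18, adjusted p = 5.15e-05). Prim1, the primase subunit that starts new strands, was higher, with 65.5, 81.5 and 93.0 in C26 and 49.7, 62.3 and 89.0 in CT. The groups overlapped widely (0.32 ± 0.12, adjusted p = 0.021), and the call was lost without CT 8 (0.27, adjusted p = 0.0514). Neither Pola1, the polymerase that extends the primer (-0.21 ± 0.13), nor the clamp loader subunit Rfc4 (-0.22 ± 0.18) passed the test; 12.7% of the exon bases of Rfc4 overlap Eif4a2 on the other strand.

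All 4 genes of deoxynucleotide supply were lower. Tk1 (ENSMUSG00000025574, chr11:117815526-117826092, minus strand), the thymidine kinase of proliferating cells, had 76.6, 107 and 230.2 normalized counts in C26 and 554, 730 and 1115 in CT. Levels in C26 were 0.161 of those in CT, with the groups far apart (-2.64 ± 0.22, adjusted p = 1.14e-10). Tk1 shares 83 exon bases, 1.60% of its own, with Afmid on the other strand. Afmid, an enzyme of tryptophan breakdown, had 78.0, 147 and 253 in C26 and 551, 639 and 863 in CT (-2.23 ± 0.22, adjusted p = 2.31e-09), so that this neighbour fell alongside, and its part in the Tk1 values was not tested. The large reductase subunit Rrm1 had 117, 152 and 185 in C26, against 197, 212 and 232 in CT. No C26 mouse reached CT (-0.53 ± 0.09, adjusted p = 5.56e-06). The small subunit Rrm2, which is made in S phase, was much scarcer, with 3.13, 10.3 and 13.9 in C26 and 12.1, 19.7 and 36.1 in CT; 7 C26 mice were below all CT mice (-1.09 ± 0.33, adjusted p = 0.00537). Thymidylate synthase Tyms had 50.2, 70.7 and 90.9 in C26 and 88.1, 105 and 117 in CT, again with 7 mice below all CT mice (-0.53 ± 0.12, adjusted p = 0.000243).

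Of the S phase regulators, the transcription factor E2f1 (ENSMUSG00000027490, chr2:154559407-154569892, minus strand) had 13.8, 26.6 and 39.0 normalized counts in C26 and 47.7, 53.8 and 61.4 in CT. The groups were apart (-1.06 ± 0.18, adjusted p = 1.28e-05). The paired E cyclins differed: Ccne2 had 21.5, 28.4 and 37.1 in C26, against 42.3, 46.4 and 71.2 in CT, with no overlap (-0.79 ± 0.15, adjusted p = 5.54e-05). Ccne1 had 70.9, 79.9 and 110 in C26 and 49.1, 69.4 and 98.0 in CT, and did not pass the test (0.28 ± 0.15, adjusted p = 0.112); without CT 7 it did (0.35, adjusted p = 0.0458). Of the exon bases of Ccne2, 17.4% overlap Ints8 on the other strand, which averaged 288 in C26 and 356 in CT.

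**Figure D3:**
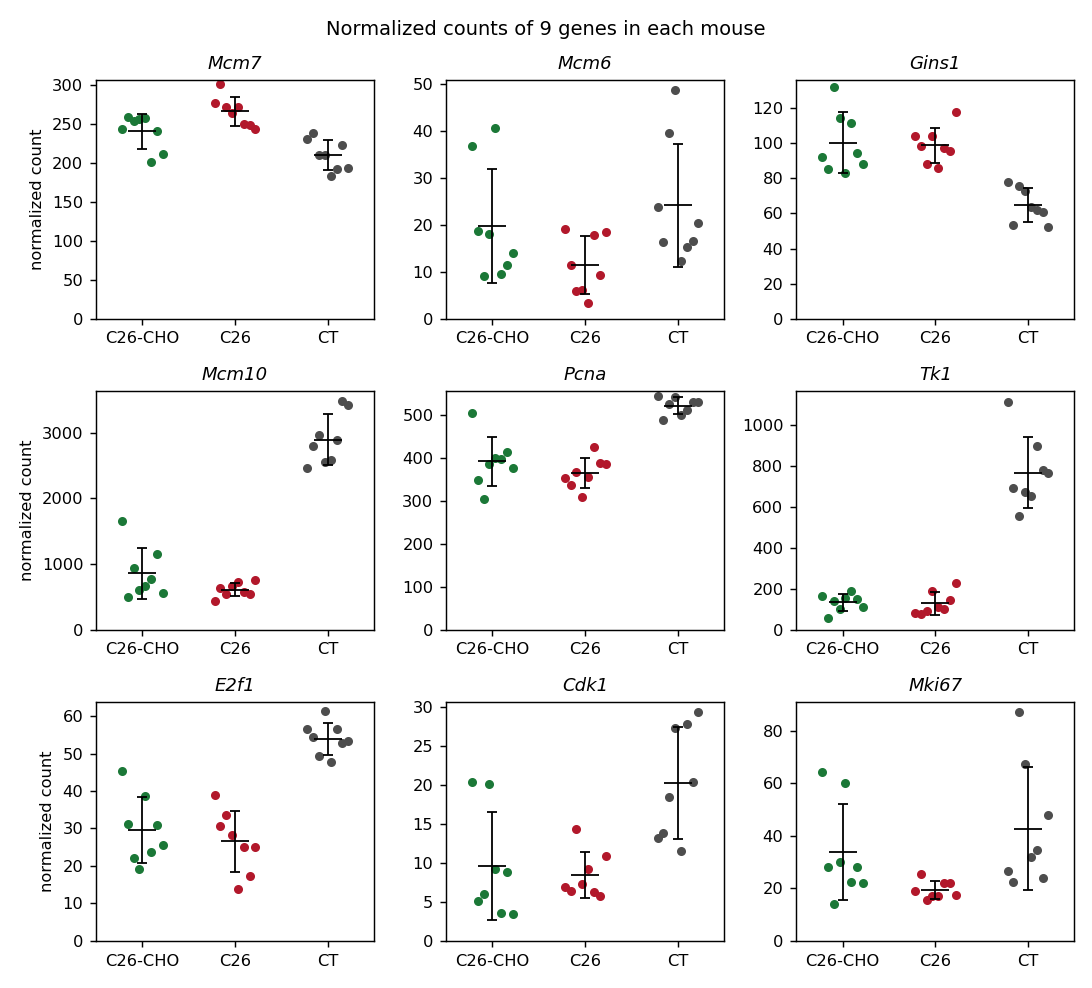
Normalized counts (y axis) of 9 genes in each mouse of C26-CHO, C26 and CT, with the mean and SD of 8 mice. Mcm10, Tk1 and E2f1 lie lower in every C26 mouse than in any CT mouse, Mcm7 and Gins1 lie higher, and Mcm6, Cdk1 and Mki67 overlap at counts under 100.

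Mitosis genes were scarce in all groups. The 15 summed to 154, 185 and 208 normalized counts per mouse in C26 (lowest, median and highest) and to 223, 233 and 403 in CT. Cdk1 (ENSMUSG00000019942, chr10:69335146-69352938, minus strand), the kinase that starts mitosis, had 5.78, 7.13 and 14.3 in C26 and 11.5, 19.4 and 29.3 in CT. In 7 of 8 C26 mice it was below all CT mice (-1.15 ± 0.31, adjusted p = 0.002). Mki67 (ENSMUSG00000031004, chr7:135689784-135716361, minus strand), the gene of the proliferation antigen Ki-67, had 15.5, 18.3 and 25.5 in C26 and 22.4, 33.1 and 87.2 in CT. Again 7 C26 mice lay below all CT mice, among which CT 3 (87.2) and CT 4 (67.2) were the highest (-0.95 ± 0.28, adjusted p = 0.00412). Kif11, a spindle motor, had 8.09, 11.7 and 15.5 in C26 and 11.5, 19.3 and 24.9 in CT (-0.66 ± 0.20, adjusted p = 0.00577), with 4 C26 mice below all CT mice. Those 3 were the called genes among the 8 tested mitosis members, of which Cdk1 reached the filter through CT mice. Top2a, a topoisomerase that untangles chromosomes, Ccna2 (cyclin A), the kinase Aurka, Birc5 (survivin) and the transcription factor Foxm1 had log2 fold changes between -0.44 and -0.16 and did not pass the test.

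For the 7 mitosis genes below the filter the counts were close to the limit of detection. Bub1, a kinase of the spindle checkpoint, had 3 reads over the 8 C26 libraries, 5 of which had none, and 24 reads over the CT libraries. Its ratio was 0.153 (exact 95% interval 0.0296 to 0.505, counting error only), and it was lower in the fit over all genes (-1.31 ± 0.36, adjusted p = 0.003). Cdc20, which activates the complex that ends metaphase, had 21 reads in C26 and 90 in CT, with a ratio of 0.286 (0.169 to 0.464), and was lower too (-1.41 ± 0.40, adjusted p = 0.00465). Cyclin B genes did the same on the counting scale: Ccnb2 had 41 reads in C26 and 92 in CT (ratio 0.547, 0.369 to 0.798), and Ccnb1 13 and 44 (0.363, 0.179 to 0.685). In the fit over all genes Ccnb2 was lower (adjusted p = 0.048) and Ccnb1 did not pass (adjusted p = 0.0522). The checkpoint kinase Bub1b had 33 reads in C26 and 79 in CT (0.513, 0.331 to 0.779; adjusted p = 0.0665), and passed in edgeR over all genes (adjusted p = 0.0364). For the kinases Aurkb and Plk1, with 23 and 31 reads in C26 and 49 and 45 in CT, the adjusted p values were 0.432 and 0.752. Intervals from pooled reads do not contain the spread between mice.

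The counts of licensing and mitosis genes are set side by side. Of 7 tested licensing genes, 2 were higher and 2 lower, and their median log2 fold change was 0.12. Among the 8 tested mitosis genes none was higher and 3 were lower, with a median of -0.35. For both roles the share called lower is near the 32.9% of all tested genes, and for licensing the share called higher is near the 33.3%. In the fit over all genes, where every member has a value, 5 of the 8 licensing genes had a positive and 3 a negative fold change (median 0.13), and all 15 mitosis genes had a negative one (median -0.66). Of these 15, 6 were called lower, beside 23.5% of all 22392 genes in that fit. The summed level of Mcm2 to Mcm7 was 517, 577 and 657 normalized counts in C26 and 429, 517 and 637 in CT, with most mice overlapping. Without Mcm10 and Tk1, the replication and S phase genes summed to 1545, 1773 and 1870 in C26 and to 1970, 2061 and 2257 in CT, so the sum was lower in every C26 mouse than in any CT mouse also when the 2 genes with the largest falls were left out. Abundant genes weigh most in such a sum, and Pcna averaged 366 in C26 and 522 in CT. The Mcm2 to Mcm7 part of it was not lower, so the sum does not show a fall of each gene. The difference between licensing and mitosis genes was not tested.

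Markers of blood cells moved as well. The 11 markers of T and NK cells summed to 32.1 to 67.7 normalized counts per mouse in C26 and to 71.8 to 170.4 in CT, and both tested ones were lower. The 7 B and plasma cell markers summed to 37.9 to 94.9 in C26 and to 56.5 to 159 in CT, with 3 of 4 tested ones lower; Cd3e of T cells was detected in all groups. Macrophage and Kupffer cell markers were higher in 10 of 12 and neutrophil markers in 6 of 6 tested. Beside these counts of tested markers, 33.3% of all tested genes were higher and 32.9% lower. Myeloid progenitor markers were higher in 3 of 3 tested and summed to 731 to 998 in C26 and 106 to 168 in CT. Megakaryocyte and platelet markers were also higher in 3 of 3 tested, at 298 to 397 in C26 and 117 to 158 in CT, and of 7 tested erythroid markers 3 were higher and 3 lower. Markers high in tumour-bearing mice alone can reach the filter through those mice. In the fit over all genes, 23.4% of genes were higher and 23.5% lower. There 8 of 11 neutrophil, 5 of 7 myeloid progenitor and 9 of 12 macrophage markers were higher. Of 5 megakaryocyte and platelet markers 4 were higher and 1 lower, and of 11 erythroid markers 5 and 3. T and NK cell markers were lower in 10 of 11, and B and plasma cell markers in 5 of 7. Of 10 colon markers 6 were in the table and 3 tested, with none higher and 2 lower (Car1 and Lgr5); their sum had a median of 3818 in C26 and 3556 in CT, with overlap, and Cdx2, a defining marker, had 4 reads over the C26 libraries and 0 over the CT libraries. CT mice had no tumour and a similar sum, so it is not a measure of carcinoma cells. The part of these cells in the levels of the replication and mitosis genes was not tested.

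**Figure D4:**
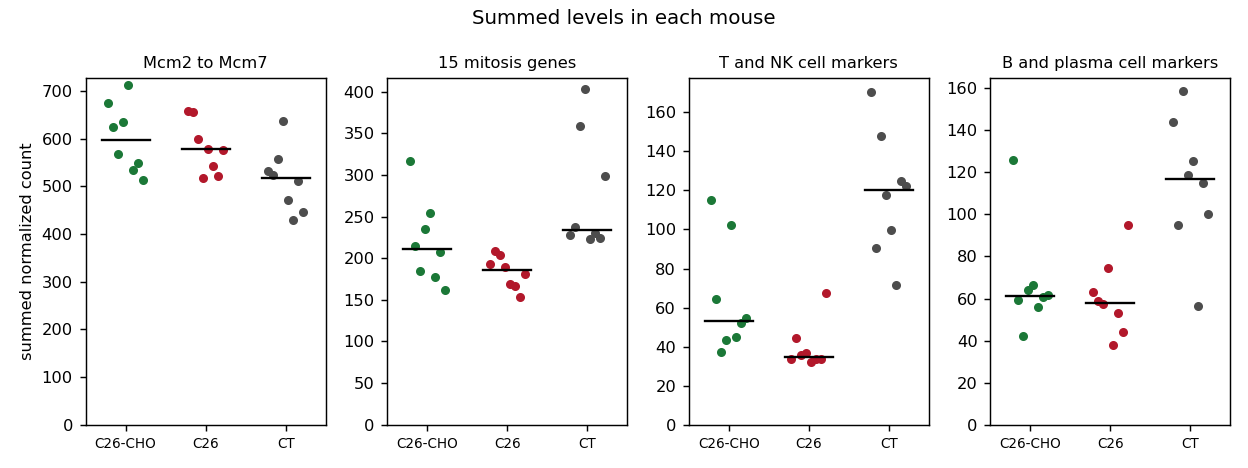
Summed normalized counts (y axis) of Mcm2 to Mcm7, the 15 mitosis genes, and markers of T and NK and of B and plasma cells in each mouse of C26-CHO, C26 and CT; lines are medians of 8 mice. The mitosis sum has medians of 211, 185 and 233 in these groups, and the T and NK cell sum medians of 53.4, 34.8 and 120.

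Related genes are counted beside the 33.3% of all tested genes that were higher and the 32.9% that were lower in C26. Of 36 other replication genes 31 were tested, of which 2 were higher and 19 lower. Gmnn (geminin), the inhibitor of Cdt1, had 46.6, 68.0 and 91.9 normalized counts in C26 and 176, 211 and 235 in CT (-1.66 ± 0.12, adjusted p = 5.33e-12), so that Cdt1 and its inhibitor both fell. Rpa1 (-0.85 ± 0.07) and Rpa3 (-0.91 ± 0.08), which coat single-stranded DNA, and the clamp loader subunit Rfc5 (-0.83 ± 0.09) fell, whereas Timeless, a fork protection factor, rose to 281, 285 and 322 in C26, against 90.9, 123 and 151 in CT (1.27 ± 0.10, adjusted p = 4.49e-11). Of 50 other mitosis genes, 27 fell under the filter; of the 23 tested, none was higher and 14 were lower. In the fit over all genes none of the 50 was higher and 30 were lower, beside 23.4% and 23.5% of all genes. The kinetochore genes Spc24 (-2.64 ± 0.18) and Spc25 (-1.91 ± 0.19), the securin Pttg1 (-2.21 ± 0.28), the centromere histone Cenpa (-1.02 ± 0.13), the centrosome kinase Nek2 (-1.49 ± 0.21) and the kinetochore gene Zwint (-0.33 ± 0.06) had the smallest p. Spc24 had 28.7, 37.4 and 48.0 in C26 and 190, 236 and 311 in CT, with the groups far apart.

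Of 31 tested genes of cell cycle entry and arrest, 7 were higher and 16 lower, and the 23 called are close to the 66.3% of all tested genes that were called. Cdkn1a, the kinase inhibitor p21, had 246, 486 and 1133 normalized counts in C26 and 7.06, 17.4 and 60.4 in CT (4.65 ± 0.52, adjusted p = 1.75e-08). Wee1, the kinase that holds Cdk1 inactive, had 5.98, 17.4 and 78.6 in C26 and 297, 402 and 480.5 in CT (-4.23 ± 0.43, adjusted p = 3.68e-09). Both an arrest gene and an inhibitor of mitosis thus differed more than any of the 40 genes. E2f8, a repressing E2F, rose (1.58 ± 0.18) where E2f1 fell, the dimer partner Tfdp1 rose (0.38 ± 0.06), and Tfdp2 (-0.90 ± 0.09) and the pocket protein gene Rbl2 (-1.02 ± 0.09) fell. Of the exon bases of E2f8, 11.2% overlap Gm2788 on the other strand, which averaged 379 in C26 and 174 in CT. Rbl2 overlaps Aktip (9.17%, 180 in C26 and 212 in CT) and Gm45464 (11.8%) there, and Cdkn1a overlaps AC167363.2 (7.68%). The part of these neighbours in the values was not tested.

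Cholestyramine left none of the 40 genes called against untreated C26 mice. In C26-CHO vs C26, 0 of 32 tested members passed in limma, edgeR and DESeq2 on the full set of libraries. Of all 14040 tested genes 99 passed in limma (0.705%), 117 in edgeR and 326 in DESeq2, so 0 of 32 is near the share of all genes. Rrm1 alone passed when C26-CHO 3 and 4 were left out, at 0.30 in edgeR (adjusted p = 0.0447) and 0.30 in DESeq2 (adjusted p = 0.0196). At an unadjusted p under 0.05 there were 6 members of 32, beside 13% of all tested genes. Of these, the ring subunit Mcm2 had 71.0, 78.0 and 99.6 normalized counts in C26-CHO and 53.8, 62.2 and 74.5 in C26, with 5 C26-CHO mice above all C26 mice (0.37 ± 0.12, adjusted p = 0.16). Rrm1 had 136, 178 and 210.3 in C26-CHO and 117, 152 and 185 in C26, with 2 mice above (0.24 ± 0.09, adjusted p = 0.185). Mcm10 had 503, 720 and 1654 in C26-CHO and 444, 606 and 765 in C26, overlapping widely (0.39 ± 0.18, adjusted p = 0.323). The others were Mki67 (0.62 ± 0.28, adjusted p = 0.336), Rfc3 (0.29 ± 0.14, adjusted p = 0.378) and Mcm7 (-0.15 ± 0.07, adjusted p = 0.339).

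Fold changes of the 32 tested genes ran from -0.34 for Cdc45 to 0.73 for Mcm6, with a median of 0.10 against 0.00 over all tested genes, and 24 of 32 were above 0. The 95% intervals show what size of difference these data leave possible. For Mcm6 the interval was -0.01 to 1.46 and for Mki67 0.04 to 1.19, while for Tk1 it was -0.37 to 0.55 and for Pcna -0.06 to 0.25. Other replication, other mitosis and entry and arrest genes gave 0 calls of 31, 23 and 31 tested, with 7, 7 and 6 of them at an unadjusted p under 0.05, beside 13% of all tested genes. Their fold changes were positive in 20, 19 and 16 genes. In the fit over all genes 44 of the 50 other mitosis genes had a positive fold change (median 0.29), and none was called. Cdkn1a had 18.8, 213 and 600.5 normalized counts in C26-CHO and 246, 486 and 1133 in C26 (-1.33 ± 0.52, adjusted p = 0.248).

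**Figure D5:**
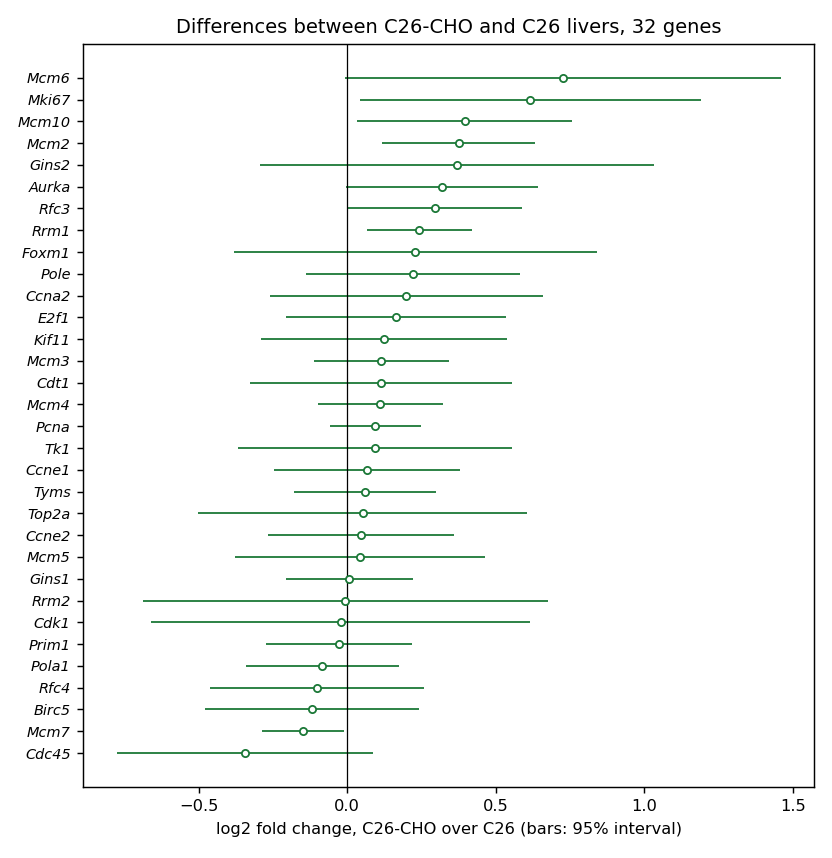
Log2 fold change of C26-CHO over C26 (x axis, bars 95% intervals) for the 32 tested genes, in the order of the fold change. None passed at an adjusted p under 0.05, and the intervals of Mcm2, Rrm1, Mcm10, Mki67, Rfc3 and Mcm7 leave out 0.

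C26-CHO livers had lower Tk1, Mcm10, E2f1 and Cdk1 and higher Mcm2, Mcm4, Mcm7 and Gins1 than CT livers. Because the comparisons of C26-CHO and of C26 with CT use the same CT mice, their values are given side by side and no overlap is drawn from them. In C26-CHO vs CT, 5 members were higher and 15 lower of 32 tested, beside 31.3% and 30.9% of tested genes (62.2% in all). Tk1 had 57.6, 147 and 190.1 normalized counts in C26-CHO, against 554, 730 and 1115 in CT (-2.55 ± 0.22, adjusted p = 3.07e-10; -2.64 in C26). Mcm10 had 503, 720 and 1654 in C26-CHO, against 2456, 2838 and 3484 in CT (-1.85 ± 0.18, adjusted p = 1.21e-09; -2.24 in C26). In both genes the highest C26-CHO mouse lay below the lowest CT mouse, as it also did for Cdc45 (-0.99 ± 0.21), Pole (-0.70 ± 0.18), E2f1 (-0.89 ± 0.18) and Ccne2 (-0.75 ± 0.15). Groups that do not overlap were found for 13.1% of tested genes with C26-CHO below CT and for 12.1% above. Gins1 was the member above CT in every C26-CHO mouse (0.62 ± 0.10, adjusted p = 1.23e-05).

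Among the ring subunits, Mcm2 (0.51 ± 0.12, adjusted p = 0.000969), Mcm4 (0.45 ± 0.10, adjusted p = 0.000414) and Mcm7 (0.19 ± 0.07, adjusted p = 0.0157) were higher in C26-CHO than in CT. Mcm6 had 9.09, 16 and 40.6 normalized counts in C26-CHO and 12.4, 18.5 and 48.7 in CT and did not pass (-0.33 ± 0.36, adjusted p = 0.435). Mki67 had 14.1, 28.1 and 64.2 in C26-CHO and 22.4, 33.1 and 87.2 in CT and did not pass either (-0.33 ± 0.28, adjusted p = 0.303). Mcm6 and Mki67 were called lower in C26 and not in C26-CHO, but the direct comparison of C26-CHO with C26 passed for neither (adjusted p = 0.392 and 0.336), so no difference between the treatments is shown. Cdk1 was lower (-1.18 ± 0.31, adjusted p = 0.0019) and Kif11 too (-0.53 ± 0.20, adjusted p = 0.0241), the call of Kif11 being lost without CT 8, C26-CHO 4 or C26-CHO 7 (adjusted p 0.0502, 0.0537 and 0.0621). Pola1 (-0.30 ± 0.13, adjusted p = 0.0416) and Prim1 (0.29 ± 0.12, adjusted p = 0.0371) lay at the threshold and passed in 14 and 16 of 24 fits that left out 1 library. Summed over the 15 mitosis genes, C26-CHO mice had 162, 211 and 317 normalized counts and CT mice 223, 233 and 403; in the fit over all genes none of the 15 was higher, 3 were called lower and 14 had a negative fold change. Over all 40 members that fit gave 4 higher and 15 lower, beside 21.1% and 21.3% of all genes. Of the 50 other mitosis genes it gave none higher and 11 lower in C26-CHO, where it gave 30 lower in C26.

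One C26-CHO mouse stood out. C26-CHO 1 had the highest level of its group in 9 of the 15 mitosis genes, with a mitosis sum of 317 normalized counts, and 1654 for Mcm10. Of the 25 others it was highest in 9 and lowest in 3, while C26-CHO 5 was highest in 8. The next sums are those of C26-CHO 1. C26-CHO 1 had the highest sums of T and NK cell (115), B and plasma cell (126) and myeloid progenitor markers (1632, the next highest mouse having 1021) of the C26-CHO mice. It had the lowest sums of hepatocyte (1314900), neutrophil (209.7), cholangiocyte (2540) and megakaryocyte and platelet markers (204); the part of these in its levels was not tested. Without it, 6 members were higher and 15 lower in C26-CHO vs CT, Ccne1 and Mcm5 joining and Pola1 leaving the called genes, and 0 were called in C26-CHO vs C26. Among CT mice, CT 4 was highest in 7 of the 15 mitosis genes, with a mitosis sum of 403.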

How the data were processed

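Liver RNA sequencing of 24 mice was used, 8 per group as the labels give them. The submitters' processing notes name bcl2fastq 2.17, FastQC, Trimmomatic 0.38, the aligner STAR 2.6.1d with GRCm38, and DESeq2 1.22.2. How reads were counted, on which annotation and with which strand setting, is not given in the sources used here. The authors deposited a signal per gene and library, the read count divided by a size factor. Whole reads were recovered from it, with 100% of values whole within 0.001 of a read; for C26-CHO 3 and 4 the size factor lies too close to 1 for this to be checked on their values alone, and count tests without them, and edgeR on every gene, were added after the data were seen. The table lists no gene with under 5 reads in all. A symbol was found for 21959 of 22392 identifiers.

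Genes with a mean of at least 10 over the 24 libraries (14040) entered a limma 3.58.1 fit (R 4.3.3, eBayes with trend) on log2 of the value plus a pseudocount of 1, all 3 groups in a single fit, with Benjamini-Hochberg adjustment over all tested genes and a threshold of 0.05. This scale understates changes of low genes. Adjusted p values are from this limma fit unless another tool is named. Alternatives were edgeR 4.0.16 and DESeq2 1.42.0 on recovered reads, other pseudocounts and filters, quantile normalization, the groups compared alone, a replicate block and leaving out each library. Scripts were tested on simulated data. Between libraries of a group, chi-square divided by its degrees of freedom was 6.97 to 194, so that no library was a repeat of another.

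Lengths, coordinates and overlaps come from GENCODE M21 (GRCm38), promoter windows from RefSeq (GRCm38.p6). The 40 genes and all lists were chosen with earlier results of these data known, so no test over a list is given. Any of the 40 may be named, and of each other list up to 6 called genes with the smallest p in C26 vs CT, except that some are not reported here; Cd3e and Cdx2 are defining markers, and Afmid and other overlapping genes were chosen after their values were seen.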

Additional observations from a re-analysis of the deposited data

Results flagged for a closer look

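The level of each of the 40 genes and 2 summed levels were examined in each group for a mouse that stands far from the other 7, which chance alone gives in about 1 of 20 groups; 6 of 126 were found. Mcm2 in CT reached 92.5 normalized counts in CT 4, the other CT mice lying between 44.4 and 66.2. In the same mouse Mcm3 stood at 134, the others between 71.8 and 99.0. Cdt1 in C26-CHO reached 93.1 in C26-CHO 1, the others lying between 24.4 and 44.2. Plk1 stood at 13.3 in that mouse, the others between 1.16 and 6.02, and the sum of replication and S phase genes at 3960, the others between 2370 and 3120. Aurkb in C26 reached 6.93 in C26 7, the others lying between 1.20 and 3.83.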

How the results depend on the processing

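Every called member kept its direction in C26 vs CT and C26-CHO vs CT under each alternative. None of the alternatives scaled the reads by depth alone. The sign of Gins2 in C26 vs CT, which was not called, turned to -0.048 under quantile normalization. With a filter at a mean of 50, which tests fewer genes, 11 members were called in C26 vs CT, 7 of them lower, and 13 in C26-CHO vs CT, 8 of them lower. In C26 vs CT, quantile normalization added Mcm5, Pola1, Ccna2 and Aurka as lower and lost Prim1 (adjusted p = 0.136), for 3 higher and 20 lower; without C26 4, Aurka was also called (adjusted p = 0.0472). Leaving out 1 library gave 19 to 21 members called in C26 vs CT, 17 to 22 in C26-CHO vs CT and 0 in C26-CHO vs C26. The number of all genes called in C26-CHO vs C26 (99) became 326 in DESeq2, 10 with only those groups in the fit, and 535 in edgeR and 800 in DESeq2 without C26-CHO 3 and 4, with 1 member called higher, Rrm1, in both. Without 1 library it ran from 23 to 273: 25, 53 and 51 without C26 1, 2 and 7, and 273, 160, 55, 23 and 56 without C26-CHO 3, 4, 6, 7 and 8. The cause was not tested. For Pola1 in C26-CHO vs CT the call was lost without CT 1, 3, 5, 6, 7 or 8 or C26-CHO 1, 2, 4 or 7 (adjusted p up to 0.0973), for Prim1 without CT 1, 2, 7 or 8 or C26-CHO 3, 4, 6 or 7 (up to 0.0854). Mcm7 in C26-CHO vs CT was not called in DESeq2 without C26-CHO 3 and 4 (adjusted p = 0.0557). The correlation of deviations between mice of the same number was -0.107 to 0.165 in C26 vs CT (mean 0.075, against -0.011 for other pairs), -0.204 to 0.232 in C26-CHO vs C26 (0.0057 against -0.00069) and -0.0248 to 0.255 in C26-CHO vs CT (0.104 against -0.015). Not every pair was over 0.1, and 2, 1 and 2 of 8 mice correlated best with their own number, so the numbers were not taken to pair the mice; with a replicate block 20, 0 and 20 members and 9643, 97 and 9079 genes were called. The 8 genes under the filter rest on 3 to 92 reads per group of 8 libraries, which limits them.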
